A study of Caenorhabditis elegans with 2 samples.

Results

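The methionine and S-adenosylmethionine (SAM) cycle was examined for binding of the nuclear hormone receptor NHR-10 at 10 Caenorhabditis elegans genes, of 19973 protein-coding genes in the Ensembl annotation (release 115) of the ce11 genome build. The genes were listed by name for their roles: metr-1, mtrr-1 and mthf-1 in methionine synthesis, sams-1, sams-3, sams-4 and sams-5 in SAM synthesis, pmt-1 and pmt-2 in SAM use, and ahcy-1 in clearing the product of that use. A bound region was assigned to a gene when its summit, the base that the authors' list marks as the region's peak, lay within 5 kb of a transcript start of the gene or inside the gene. All 10 genes were found in the annotation and all 10 had at least 1 region in the list called on both replicates together, under a rule that 69.8% of protein-coding genes also met.

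The cycle makes methionine from homocysteine with a methyl group taken from folate, turns methionine into SAM, the general methyl donor of the cell, and recovers homocysteine from the S-adenosylhomocysteine that each methyl transfer leaves. METR-1 is the methionine synthase and needs vitamin B12, MTRR-1 is the reductase that keeps it active, and MTHF-1 makes the methylated folate. The SAMS enzymes are SAM synthetases, PMT-1 and PMT-2 are phosphoethanolamine methyltransferases that spend SAM on the way to phosphatidylcholine, and AHCY-1 is the S-adenosylhomocysteine hydrolase. When B12 is low, C. elegans breaks down propionate by a B12-independent shunt that NHR-10 and NHR-68 switch on, while NHR-114 is known to raise genes of the methionine and SAM cycle when the cycle runs low.

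Chromatin immunoprecipitation and sequencing (ChIP-seq) was done on whole L4 larvae, the last larval stage, of strain OP239, in a pool of both sexes. The strain carries the mutation unc-119(ed3) on chromosome III and the transgene wgIs239, an inserted nhr-10 tagged with eGFP. The samples were 2 biological replicates, each with 1 technical replicate, and both belonged to the same group, with no second genotype, diet or stage beside them. The tagged protein comes from the inserted copy, whose level against the native gene was not measured. In whole larvae a region bound in few cells cannot be told apart from one bound weakly in many.

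Regions came as 4 lists on ce11: 21319 regions of replicate 1, 22317 of replicate 2, 17447 called on the replicates pooled, and a short list termed optimal by the authors. The optimal regions were simply the top 5.7% of the pooled regions by signal. The first 3 lists run down into background by their own description, so a region counted as strong here only when it was optimal or in the top set of a replicate, the same number of regions taken from the head of that replicate's own list. Signal is the authors' value per region, on a scale they do not state, and was compared only within a list, by rank, with rank 1 the highest. The lists hold no read counts, so depth is unknown and no counting interval can be given.

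Optimal regions lay at 4 of the 10 genes, metr-1, mtrr-1, pmt-1 and ahcy-1, against 9.31% of protein-coding genes under the same rule. They were 7 in all, 1 each at metr-1 and ahcy-1, 2 at mtrr-1 and 3 at pmt-1. The other 6 genes, mthf-1, pmt-2 and the 4 SAM synthetase genes, had weaker regions only. No test was made of the list as a whole, since its genes were picked with earlier results of these data known. Of the 4 genes on chromosome II, metr-1, mtrr-1 and pmt-1 had an optimal region and mthf-1 did not, and 6 of the 7 optimal regions lay on that chromosome, which held 16.4% of all optimal regions and 15.6% of all pooled ones.

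**Figure D1:**
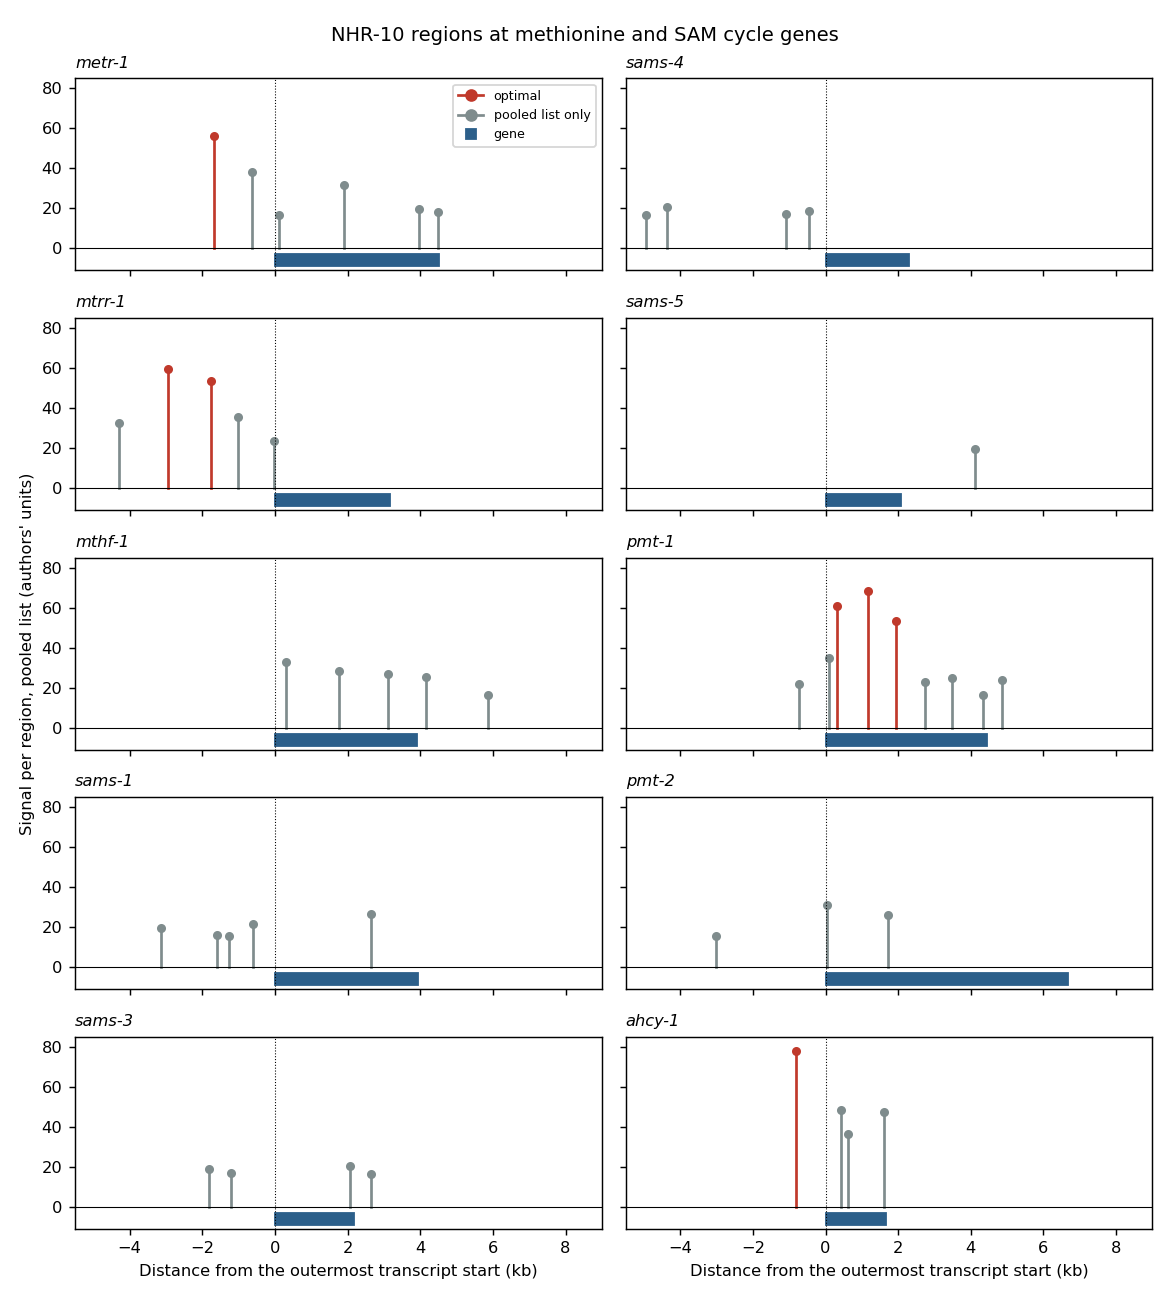
Position and signal of every region of the pooled list at the 10 genes. The horizontal axis is the distance in kb from the outermost transcript start, drawn in the direction of transcription, the vertical axis is the authors' signal per region, stems mark summits and the bar marks the gene. The 7 optimal regions, in red, have signals between 53.2 and 78.1 and lie upstream of metr-1, mtrr-1 and ahcy-1 and inside pmt-1.

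The 6 optimal regions on chromosome II are shown by the 101 bases centred on each summit, to let the sites at the methionine synthesis genes be read beside those in pmt-1. Bases are those of the ce11 plus strand, 5' to 3', from the RefSeq assembly of that build. Capitals mark matches, on either strand, to TGATAA, the GATA-type sequence common at intestinal genes, and to CACGTG, the E-box bound by many helix-loop-helix factors, the only ones of 5 searched sequences found in these windows. TTATCA is TGATAA read on the minus strand.
metr-1, 1664 bp upstream of its start, II:10924847-10924947: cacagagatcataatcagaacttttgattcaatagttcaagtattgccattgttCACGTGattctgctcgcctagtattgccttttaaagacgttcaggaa
mtrr-1, 2938 bp upstream of its start, II:9282987-9283087: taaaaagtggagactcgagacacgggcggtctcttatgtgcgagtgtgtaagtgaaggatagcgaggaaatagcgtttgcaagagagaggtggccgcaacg
mtrr-1, 1748 bp upstream of its start, II:9284177-9284277: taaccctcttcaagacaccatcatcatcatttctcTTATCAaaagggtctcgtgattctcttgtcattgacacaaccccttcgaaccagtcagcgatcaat
pmt-1, 127 bp downstream of a start, in an intron, II:5282170-5282270: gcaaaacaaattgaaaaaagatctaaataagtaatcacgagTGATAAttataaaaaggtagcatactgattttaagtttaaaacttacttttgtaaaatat
pmt-1, 1000 bp downstream of a start, in an intron, II:5281297-5281397: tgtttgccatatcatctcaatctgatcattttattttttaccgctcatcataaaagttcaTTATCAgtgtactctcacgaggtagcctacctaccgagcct
pmt-1, 301 bp upstream of an internal start, in an intron, II:5280530-5280630: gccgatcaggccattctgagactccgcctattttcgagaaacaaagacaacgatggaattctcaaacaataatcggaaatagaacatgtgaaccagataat
Of the 6 stretches, TGATAA is in 3 and CACGTG in 1, and the farther mtrr-1 region and the region at the internal pmt-1 start hold no match this close to the summit.

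At the methionine synthesis genes, the optimal regions lay in the DNA upstream of metr-1 and mtrr-1, and mthf-1 had none. At mtrr-1 (WBGene00006510, II:9285975-9289132, plus strand) both regions lay in the 5876 bp between that gene and gldi-3, which is transcribed the other way, so each was within reach of either gene. The summit 2938 bp upstream had a signal of 59.6 and rank 597 in the pooled list. It had a signal of 31.9 and rank 583 in replicate 1, and a signal of 30.0 and rank 839 in replicate 2. It was thus in the top set of each replicate, with summits 46 bp apart at most from the pooled one.

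The region 1748 bp upstream of mtrr-1 was strong in replicate 1 and less so in replicate 2. Its signal was 53.7 and its rank 802 in the pooled list, with signal 32.7 and rank 548 in replicate 1 against signal 25.0 and rank 1372 in replicate 2. A region 1022 bp upstream went the other way, with rank 5006 in replicate 1, rank 714 in replicate 2 and rank 2274 pooled. Each replicate therefore had 2 strong regions in this stretch, and the one at 2938 bp was shared. Close to the start, 29 bp upstream, the pooled list had a weak region of rank 6237, with ranks of 3532 and 17175 in replicates 1 and 2. The replicate 2 summit lay 337 bp from the pooled one.

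The optimal region of metr-1 (WBGene00010988, II:10926561-10931078, plus strand) was in the top set of neither replicate. Its summit lay 1664 bp upstream of metr-1, and the nearest protein-coding start was that of Y19D2B.2, at 649 bp, with Y19D2B.1 in reach as well. It had a signal of 56.2 and rank 705 in the pooled list, a signal of 23.2 and rank 1434 in replicate 1, and a signal of 27 and rank 1125 in replicate 2. The 2 replicate ranks differed by a factor of 1.27, so it stood at a like rank in both and passed the threshold in the pooled call only. A weaker region 625 bp upstream, whose nearest start is that of metr-1, had rank 1946 pooled, rank 1376 in replicate 1 and rank 20572 in replicate 2, a difference of 15-fold.

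The gene mthf-1 (WBGene00015512, II:7773904-7777823, minus strand) had 5 regions in the pooled list and none was optimal. Its strongest lay 288 bp downstream of a start, in an intron, with signal 33.0 and rank 2739. It ranked 1320 in replicate 1 and 8915 in replicate 2, where the summit lay 287 bp away. The best rank that any region of mthf-1 reached was 1320 in replicate 1 and 2889 in replicate 2, the latter from a region 2085 bp downstream of a start for which replicate 1 had no overlapping region.

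None of the 4 SAM synthetase genes had an optimal region or a region in the top set of either replicate. In the pooled list, the highest of their regions lay in an intron of sams-1 (WBGene00008205, X:11965962-11969893, plus strand), 2655 bp into the gene, with signal 26.4 and rank 4699 pooled, 4380 in replicate 1 and 7298 in replicate 2, where the region with the closest summit had rank 12764. Within each replicate the highest lay upstream of sams-1 instead. The pooled region at 593 bp had rank 7485, with 4115 in replicate 1 and 20871 in replicate 2, where the summit lay 307 bp away. The one at 3125 bp had rank 9772, with 19536 in replicate 1, where the summit lay 160 bp away, and 3470 in replicate 2. The promoter side of the main SAM synthetase gene thus held no strong region in any list.

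The genes sams-3 (WBGene00015538, IV:5848657-5850843, plus strand) and sams-4 (WBGene00015540, IV:5844061-5846369, minus strand) are transcribed away from each other from starts 2288 bp apart, and their 4 pooled regions were the same 4. The strongest lay in the 3' UTR of sams-3, with signal 20.5 and rank 8648 pooled, 9063 in replicate 1 and 19487 in replicate 2. Between the genes, a region 464 bp upstream of sams-4 had rank 10653 pooled, and ranks of 16131 and 13574 in replicates 1 and 2. The only pooled region of sams-5 (WBGene00006416, IV:6277433-6279522, minus strand) lay in a coding exon of the neighbouring gene aat-4, with signal 19.4 and ranks of 9863 pooled, 9799 in replicate 1 and 10123 in replicate 2.

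Some of the sequence of these genes is repeated in the genome. Only 42.1% of the 36-base windows of sams-3 and 56.6% of those of sams-4 occur in no other place, against 96.3% for sams-5 and 99.3% for sams-1, and the coding sequences of sams-3 and sams-4 are identical at 92.5% of aligned bases. The sources used here do not give the read length or say how reads with several matches were placed, and any loss of signal inside sams-3 and sams-4 was not tested. The 1000 bp upstream of each of the 4 genes is made wholly of windows that occur once in the genome, as are all 7 optimal regions. Within that distance, the SAM synthetase genes thus had no optimal region on sequence that is not repeated.

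The gene pmt-1 (WBGene00022781, II:5278090-5282523, minus strand), the earlier of the methyltransferases on the way to phosphocholine, had the most regions of the 10, 9 in the pooled list with 3 optimal. All 3 optimal summits lay in introns of pmt-1, which has 8 annotated transcripts from 5 starts, and all were also within reach of gur-5, transcribed the other way. The strongest lay 1000 bp downstream of the nearest start, with signal 68.5 and rank 423 pooled, signal 31.8 and rank 586 in replicate 1, and signal 38.0 and rank 443 in replicate 2. The region 127 bp downstream of the same start had signal 60.9 and rank 565 pooled, signal 34.6 and rank 465 in replicate 1, and signal 29.2 and rank 897 in replicate 2. Both were thus in the top set of each replicate.

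The optimal region farther into pmt-1, 301 bp upstream of an internal start and 1943 bp from the outermost one, was close to the threshold in every list. Its signal was 53.2 and its rank 824 pooled, its rank was 1057 in replicate 1 and 1190 in replicate 2, and its summits lay within 1 bp of each other. A weaker pooled region near the outermost start, of rank 2383, overlapped the same strong replicate regions as the one at 127 bp. In replicate 1 the region with the summit closest to it had rank 10018, and replicate 2 listed no other there. Upstream of all pmt-1 starts, at 734 bp, the pooled list had a region of rank 7670, which ranked 4013 in replicate 2 and was not listed in replicate 1.

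At pmt-2 (WBGene00018811, V:4628580-4635263, plus strand), which codes for the methyltransferase that completes phosphocholine, no region was optimal. The strongest lay in the 5' UTR, 49 bp from the start, with signal 30.9 and rank 3233 pooled, 3596 in replicate 1 and 8027 in replicate 2. An intron region 1730 bp into the gene ranked 2072 in replicate 2 and was not listed in replicate 1. Only 40 bp separate pmt-2 from the end of sumv-2 upstream, and 96.1% of the 36-base windows in the 1000 bp before pmt-2 occur once in the genome. Within the gene itself the share was 79.8% for pmt-2 and 100% for pmt-1, and any loss of signal inside pmt-2 was not tested. The methyltransferase genes thus stood apart in rank in each list, with best ranks of 465 and 443 for pmt-1 against 3596 and 2072 for pmt-2 in replicates 1 and 2.

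The strongest region of the 10 genes lay 810 bp upstream of ahcy-1 (WBGene00019322, I:6836469-6838140, plus strand), at I:6835447-6835870, between genes. Its signal was 78.1 and its rank 294 pooled, with rank 260 and signal 41.8 in replicate 1 and rank 401 and signal 39.3 in replicate 2. Replicate 1 had a pair of overlapping regions here, and the one whose summit lay closest to the pooled summit had rank 304. The neighbouring gene dpf-3 was also within reach of this region. Of all protein-coding genes, 3.01% had a better best rank in the pooled list than ahcy-1.

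Inside ahcy-1 lay 3 more pooled regions, 2 of them just under the threshold of the optimal list. The region 415 bp into the gene, in a coding exon, had signal 48.4 and rank 1071 pooled, against the weakest optimal signal of 49.6, with rank 1666 in replicate 1. In replicate 2 the region with the closest summit, 6 bp away, had rank 1419, and the best-ranked region that overlapped it, of rank 759, had its summit 216 bp away. The region at 1607 bp, in the 3' UTR and 278 bp from the start of dpf-3, had signal 47.2 and rank 1137 pooled, and rank 504 in replicate 2. In replicate 1 it overlapped regions of rank 2349 and 2853, with summits 127 bp and 103 bp away. The coding region at 625 bp was weaker, with signal 36.4 and rank 2159 pooled. Its summit was 6 bp from that of the region of rank 759 in replicate 2, and in replicate 1 it overlapped the same region of rank 1666 as the one at 415 bp. Just inside the threshold, the weakest optimal region of the 10 genes was the one at the internal pmt-1 start, with signal 53.2.

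**Figure D2:**
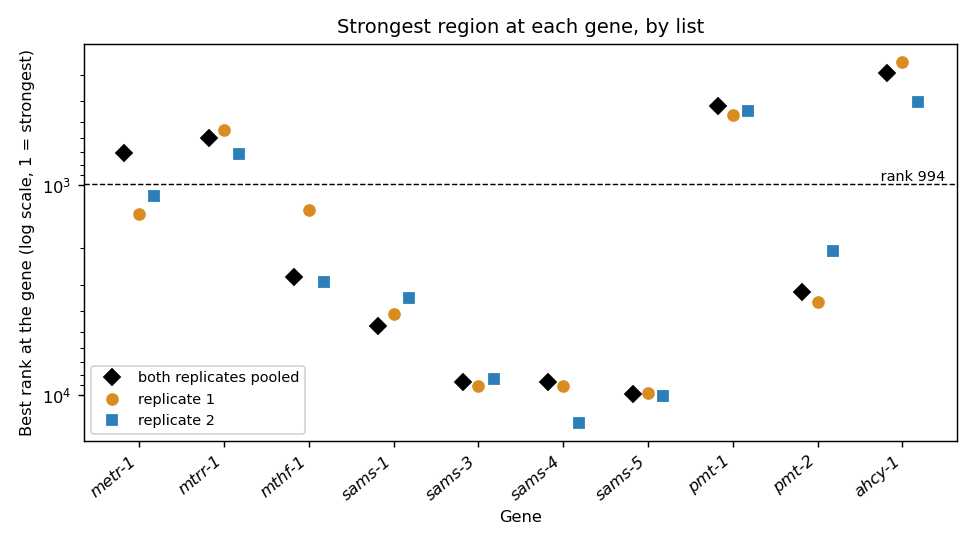
Best rank reached by any region at each of the 10 genes in the pooled list, replicate 1 and replicate 2, on a log axis with rank 1 at the top. The dashed line is the last rank of the top set. The genes mtrr-1, pmt-1 and ahcy-1 lie above the line in all 3 lists, metr-1 only in the pooled list, and the other 6 in none.

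Counted by replicate, mtrr-1, pmt-1 and ahcy-1 had a region in the top set of replicate 1, a rule met by 9.34% of protein-coding genes, and the same 3 genes had one in the top set of replicate 2, met by 8.97%. Asked for 1 pooled region that overlapped the top sets of both replicates, the same 3 of 10 genes passed, against 5.34% of protein-coding genes. Replicate 1 alone gave 6 strong regions at these genes and replicate 2 alone gave 7. The order of the 4 leading genes differed little: ahcy-1 came before pmt-1 and mtrr-1, and metr-1 after them, in each replicate, although mthf-1 at rank 1320 came before metr-1 at rank 1376 in replicate 1. Between pmt-1 and mtrr-1 the ranks were 465 and 548 in replicate 1 and 443 and 714 in replicate 2, and with 2 replicates no interval was set on that difference.

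The 7 optimal regions were set beside all optimal regions for agreement between the replicates. Of the 7, 4 were in the top sets of both replicates, 1 in that of replicate 1 only and 2 in neither, so that 57.1% were in both, against 54.0% of all optimal regions, and 28.6% in neither, against 5.43%. The higher of the replicate ranks exceeded the lower by a median factor of 1.44 over the 7 and 2.27 over all. Of the 42 distinct pooled regions at the 10 genes, 33 overlapped a region in both replicates, 2 in replicate 1 only, 5 in replicate 2 only and 2 in neither, the last with ranks of 13543 and 15707. The same shares over all pooled regions were not taken. A match needed only 1 bp of overlap, and at 1 sams-1 region the replicate summits lay 338 bp and 360 bp away. The 26 weaker regions that overlapped one in both replicates had a median factor of 2.17 between their ranks and a highest factor of 15.

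**Figure D3:**
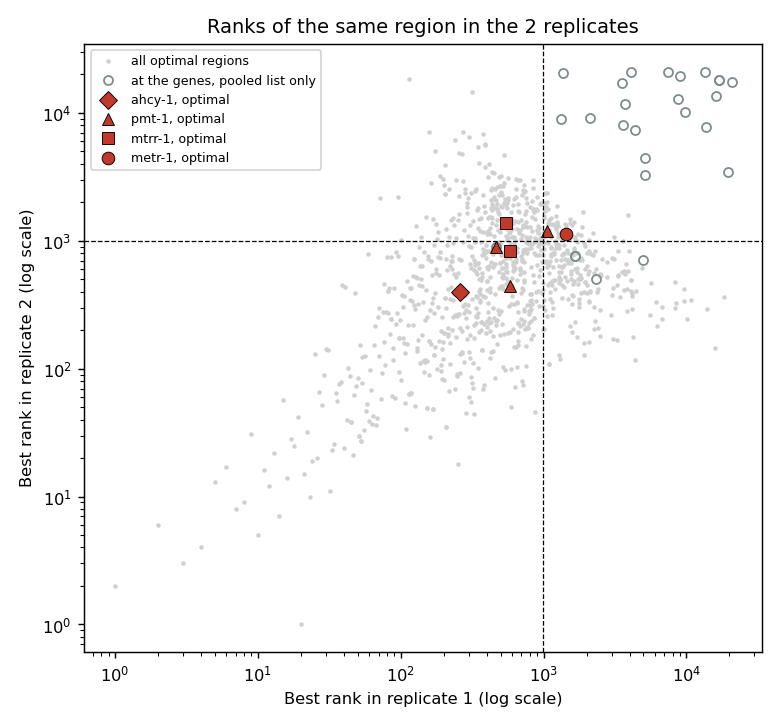
Best rank in replicate 1 (horizontal, log scale) and replicate 2 (vertical, log scale) of regions overlapping each pooled region, for all optimal regions (grey points) and for the 33 regions at the 10 genes that overlapped a region in both replicates. Dashed lines mark the last rank of the top sets. The 7 optimal regions at the genes (red, a shape per gene) lie around the crossing of the lines, with 4 below and left of it.

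Set among all genes, the best pooled ranks of the 10 ran from 294 to 9863 with a median of 2986. The median over all protein-coding genes was 9522, with the genes that had no pooled region counted as last. In replicate 1 the medians, taken the same way, were 2486 and 9239, and in replicate 2 they were 2480.5 and 9372. The share of protein-coding genes with a better pooled rank was 3.01% for ahcy-1, 4.17% for pmt-1, 5.84% for mtrr-1 and 6.74% for metr-1, then 20.9% for mthf-1, 23.6% for pmt-2 and 31.0% for sams-1. It was 47.1% for sams-3 and sams-4 and 51.0% for sams-5. The 10 genes held a median of 4.5 pooled regions against 1 over all genes, in a searched stretch of median 10033 bp against 10001 bp.

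**Figure D4:**
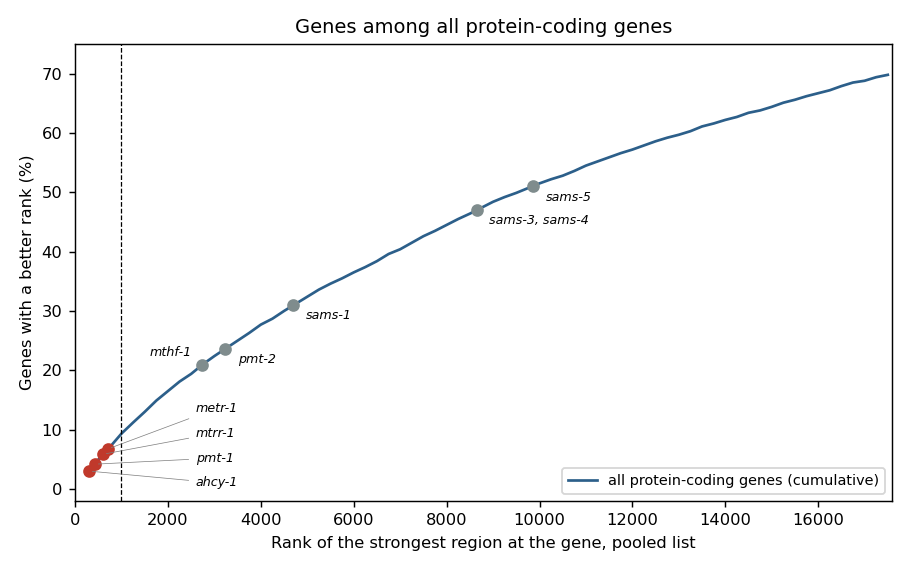
Share of protein-coding genes with a better best rank in the pooled list (vertical, %) against that rank (horizontal), with the curve over all genes and a point per gene described. Red points left of the dashed line, the last optimal rank, are ahcy-1, pmt-1, mtrr-1 and metr-1, and the SAM synthetase genes lie between 31.0% and 51.0%.

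Placement of the 7 optimal regions was read beside that of all optimal regions. The 7 were chosen for lying within 5 kb of a start or inside a gene, which limits this comparison. Between genes lay 4 of them and in introns 3, with none in a coding exon, against 60.4%, 25.8% and 3.82% of all optimal regions. The nearest protein-coding start was a median of 810 bp away, against 783.5 bp over the whole list. With the window narrowed to the promoter (1000 bp before a start, 200 bp after it), only ahcy-1 and pmt-1 had an optimal region, a rule met by 2.82% of protein-coding genes. At pmt-1 this held only through starts inside the outermost one, since its optimal summits lay 303 bp or more into the gene. The regions of mtrr-1 and metr-1 lay farther out.

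The 5 sequences searched, on both strands within 150 bp of the summit, occurred as follows. TGATAA was in 5 of the 7 regions, namely all 3 of pmt-1, the one of metr-1 and the region 1748 bp upstream of mtrr-1, against 39.5% of all optimal regions and 33.0% of pooled ones. CACGTG, which reads the same on both strands, was in 2, at metr-1 from 4 to 9 bases past the summit and at the mtrr-1 region 1748 bp upstream, against 16.8% and 7.41%. AGGTCA, the half-site bound by many nuclear receptors, was in 2, at ahcy-1 and at the mtrr-1 region 1748 bp upstream, against 8.95% and 8.96%. The shorter GGTCA, which every AGGTCA contains, was in the same 2 regions, against 30.4% and 28.0%, and TCACNCCAC was in none, against 2.11% and 0.894%. Of the 301 bases around each summit, between 30.6% and 45.5% were G or C, against a median of 41.2% over all optimal regions. Only the mtrr-1 region 2938 bp upstream, at 45.5%, was above that median. The metr-1 region, the mtrr-1 region 1748 bp upstream and the pmt-1 regions at 127 bp and 1000 bp were below the lower quartile of 36.9%.

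Pathways that meet the cycle were read the same way, in 23 further genes, of which 7 had an optimal region, against the 9.31% of all protein-coding genes. In a list that joined transsulfuration, the branch that drains homocysteine into cysteine, with cysteine synthase-like genes, 3 of 6 genes did. They were cbs-1, a cystathionine beta-synthase, and the cysteine synthase-like genes cysl-1 and cysl-2. Only cbs-1 of these 3 belongs to the branch itself. The cbs-1 region had rank 522 pooled, 394 in replicate 1 and 833 in replicate 2. The cysl-1 region, of rank 134 pooled and ranks 163 and 155 in the replicates, lay 4187 bp upstream with ZC506.1 as the nearest start, and the cysl-2 region, of rank 363, lay 2603 bp upstream with dhs-8 nearest. The same 3 genes had a pooled region in the top sets of both replicates, against 5.34% of protein-coding genes. None of these 3 had one in the promoter window. Below the threshold, the cystathionine gamma-lyase gene cth-2 had a best pooled rank of 1871, and cbs-2 had no region in any list.

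In the folate branch that supplies the methyl group, 2 of 7 genes had an optimal region, against 9.31% of all protein-coding genes. They were mel-32, a serine hydroxymethyltransferase, at rank 769 and gldc-1, a glycine decarboxylase, at rank 771. Both were in the top set of replicate 1, with ranks of 663 and 660, and not in that of replicate 2, with ranks of 1402 and 1952. The mel-32 region lay 4779 bp upstream of mel-32, with let-721 as the nearest start. Below the threshold, alh-3, a formyltetrahydrofolate dehydrogenase gene, had rank 1150 pooled and the folate transporter gene folt-1 had rank 2151. The phosphatidylcholine list joined synthesis after or beside the PMT enzymes with a sensor gene of the pathway. In it 2 of 10 genes had an optimal region, also against 9.31%. They were cept-1 at rank 987 and cept-2 at rank 398, both choline or ethanolamine phosphotransferase genes. The cept-1 region ranked 1081 in replicate 1 and 1379 in replicate 2, in the top set of neither. The cept-2 region lay closest to the start of vha-13 and ranked 413 and 640 in the replicates. Of these 17 genes, cept-2 alone had a pooled region in the top sets of both, a rule met by 5.34% of protein-coding genes. Next in rank came 1 region shared by the choline kinase genes ckb-1, ckb-2 and ckb-3, at rank 1864 pooled, 1160 in replicate 1 and 6356 in replicate 2.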

How the data were processed

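The data were ChIP-seq of eGFP-tagged NHR-10 in whole L4 larvae, 2 replicates of 1 group by the labels. The authors' deposited lists give a start, end, summit and signal value for each region, on ce10 and ce11, and per the descriptions deposited with them all lists used 1 control alignment. Not given in the sources used here are the peak caller, the aligner, the read length and the threshold of the irreproducible discovery rate step. Only the ce11 lists were used, with Ensembl release 115 and the RefSeq sequence of that build, and ranks follow the deposited signal. The pooled list held 2 repeated intervals, with different summits. A pooled region was matched to replicate regions overlapping by at least 1 bp, and the best rank among them was kept. Uniqueness was the share of 36-base windows found once in the genome on either strand. The members and lists were chosen with earlier results of these data known, and no statistical test was made. Named are all members, the genes in reach of or nearest to their optimal regions, and, with values, up to 4 best ranks of each further pathway, genes tied at 1 region included, the receptors and all 5 propionate shunt genes; cbs-2 was named after its values were seen. Scripts ran in Python 3.11.15 with numpy 2.4.6, pandas 2.3.3, Biopython 1.88 and matplotlib 3.10.9 and were checked on simulated data. Alternatives covered the reach, the assignment, the number of strong regions, the match between replicates and each replicate alone.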

Additional observations from a re-analysis of the deposited data

How the results depend on the processing

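The 3 counts reported were 4 genes with an optimal region, 7 such regions, and 3 genes strong in both replicates. With the promoter window they became 2 genes, 3 regions and 2 genes, in both cases ahcy-1 and pmt-1. With only the stronger 50% of the optimal list and of each top set they became 2 genes, 2 regions and 1 gene, ahcy-1, in both replicates. A reach of 2 kb gave 4 genes, 6 regions and 2 genes strong in both replicates. The gene lost from the last count was mtrr-1, whose region strong in both lay 2938 bp upstream. A reach of 10 kb gave 4, 8 and 3. Any base of the region in place of its summit left the 3 counts as reported, and assignment to the nearest start gave 3 genes, 6 regions and 3, without metr-1. With the top set of 1 replicate in place of the optimal list, 3 genes remained in each case, without metr-1, with 7 regions in replicate 2 and 6 in replicate 1. A stricter match between replicates, by summits within 100 bp or by overlap of at least 50% of the shorter region, left 3 genes. Over all protein-coding genes, 2.82% had an optimal region in the promoter window and 4.94% had a pooled region within rank 500. For the other reaches, any base, the nearest start and the stricter matches no such share was taken. The changed counts of genes strong in both replicates have none beside them either. Of 66 best ranks recomputed for single genes, 56 stayed within 1.5 times and 10 did not, among them metr-1 at rank 1946 and mtrr-1 at rank 6237 in the promoter window. No region was left in 4 cases, for sams-5 in 3 of them and for sams-3 in the promoter window. No paired analysis was possible because the result comes from no test. With 2 replicates, no depths and 1 condition, differences between neighbouring ranks cannot be given an error.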

Other observations

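The receptors and targets of the B12 response were read beside the cycle genes. The gene nhr-68 had rank 9 pooled, with ranks of 8 and 9 in replicates 1 and 2, at a region 355 bp upstream of it whose nearest start is that of H12C20.7. The region of nhr-10, of rank 110 pooled, ranked 873 in replicate 1 and 46 in replicate 2, at a gene that the transgene also carries, and the part of the transgene in it was not tested. The gene nhr-114, the receptor tied to the methionine and SAM cycle, had no optimal region, and its best was rank 1605 pooled, in an intron 124 bp upstream of a start, with ranks of 1787 and 2198 in the replicates. Of 5 propionate shunt genes, hach-1 and hphd-1 had an optimal region, against 9.31% of all protein-coding genes. The best hach-1 region had rank 563 pooled, 361 in replicate 1 and 1200 in replicate 2, with nmad-1 as the nearest start. The best hphd-1 region had rank 164 pooled and ranks of 119 and 424 in the replicates. Only hphd-1 had a pooled region in the top sets of both, a rule met by 5.34% of protein-coding genes. The best pooled ranks of acdh-1, ech-6 and alh-8 were 6198, 1427 and 1678.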
